A study of Frankliniella occidentalis and Frankliniella intonsa with 9 samples.

Results

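Ion channel genes of the nervous system and of mechanical senses were followed in the antennae of thrips, minute insects that feed on plants and flowers. The members were all rows of the expression table annotated with an Ion_trans, Ion_trans_2, ASC, Neur_chan_LBD, Neur_chan_memb or Piezo protein domain, or whose Swiss-Prot name was a transient receptor potential (TRP) protein. Rows with a Lig_chan domain, which marks ionotropic glutamate receptors and their olfactory relatives, were to be left out, and 0 rows met that exclusion. This gave 103 of 48889 rows: 35 ligand-gated channels, 30 members of the pickpocket family (ASC domain), 20 voltage-gated and related channels with an Ion_trans domain, 13 channels with an Ion_trans_2 domain, and 5 TRP channels. A row is an assembled gene and can be a fragment: the 103 rows lay in 67 assembly components (groups of contigs that share sequence), and 58 of them shared a component with another member, so rows need not be separate genes.

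Channels of these classes turn chemical, mechanical and electrical events into currents. In insects, pentameric receptors open on binding acetylcholine (excitation) or GABA, glutamate or histamine (inhibition by chloride), and many insecticides act on them. Pickpocket channels belong to the family of amiloride-sensitive sodium channels and serve mechanical, water, salt and pheromone sensing in Drosophila, while Drosophila TRP channels serve hearing, touch, heat and phototransduction. Voltage-gated channels carry the action potential and transmitter release, and tandem-pore and leak channels set the resting potential.

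RNA was sequenced from antennae of 1-day-old adults in 9 libraries: 3 of Frankliniella occidentalis females (western flower thrips, a pest of crops), 3 of male F. occidentalis and 3 of female Frankliniella intonsa. No strain, treatment or genetic change is named for any group. The series title names odorant-binding and chemosensory proteins as its subject, so channels were outside the study's stated question. Whether the replicates are separate insects or pools is not stated, so p-values measure the spread between these libraries, which may be technical. Values are TPM (transcript abundance corrected for transcript length and scaled to a fixed library total, so levels can be compared between genes), and TPM keeps no read numbers, so depth is unknown.

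Across all rows, the 6 F. occidentalis libraries had 22666 to 24204 genes above 0, while F. intonsa libraries 1, 2 and 3 had 16360, 28515 and 10556. The odorant receptor coreceptor Orco, which marks olfactory neurons, was at 9.16 to 23.3 TPM in the F. occidentalis libraries and at 0.08, 18.44 and 0 TPM in the F. intonsa libraries. Muscle, eye and fat body transcripts were also abundant: in F. occidentalis their lists summed to 7895 to 16748 TPM, 1438 to 3816 TPM, and 6672 to 12478 TPM in females against 87.9 to 159 TPM in males. Most of the fat body sum was vitellogenin, at 6644 to 12448 TPM in females and 73.3 to 121 TPM in males. The other names of that list overlapped between the sexes: apolipophorin at 25.15 to 32.73 and 13.43 to 28.97 TPM, hexamerin at 2.12 to 10.82 and 1.15 to 9.15 TPM. The part of these other tissues in the channel results was not tested.

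The working name of the set, neuronal and mechanosensory channels, held only in part. No row carried a Piezo domain, and no member was annotated as NompC, nanchung, inactive, pyrexia, water witch or TRPA1, the TRP channels best known from Drosophila for touch, hearing, humidity and heat. Among TRP proteins the members were painless, trpm and trp-gamma, while a TRP-related mucolipin-3-like row lay outside the rule. Of the pickpocket rows, whose family includes mechanical sensors, 22 were described as Nach (a pickpocket-family sodium channel named from Drosophila) and 9 by the word pickpocket. Outside the rule the table also held a short Piezo fragment and a row like transmembrane channel-like protein 7 (TRINITY_DN40753_c1_g4, at 3.97, 7.24 and 4.04 TPM in F. occidentalis females and 9.33, 3.29 and 5.6 TPM in males). No member was annotated as para, the sodium channel of the insect action potential, and both sodium channel members were NALCN, a sodium leak channel. Short para rows without an Ion_trans domain, TRINITY_DN46021_c0_g6 and TRINITY_DN46021_c0_g16, lay outside the rule and were above 0 only in F. intonsa library 2, at 7.59 and 5.8 TPM. One row with an Ion_trans domain, TRINITY_DN39598_c0_g3, was annotated in Swiss-Prot as the mitochondrial ribosomal protein MRPS9 and is counted but goes against the channel label.

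Channel transcripts were scarce. In F. occidentalis 85 members were above 0, 75 had a mean of at least 1 TPM over the 6 libraries and 13 a mean of at least 10 TPM, and the highest single value of any member was 120.51 TPM. Since rows that stayed low in every library are not in the table (the smallest row maximum was 5.01 TPM), channels with lower levels could not be seen. The ligand-gated class held the most transcripts and the pickpocket class the next most, as the heatmap of members by library shows.

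**Figure D1:**
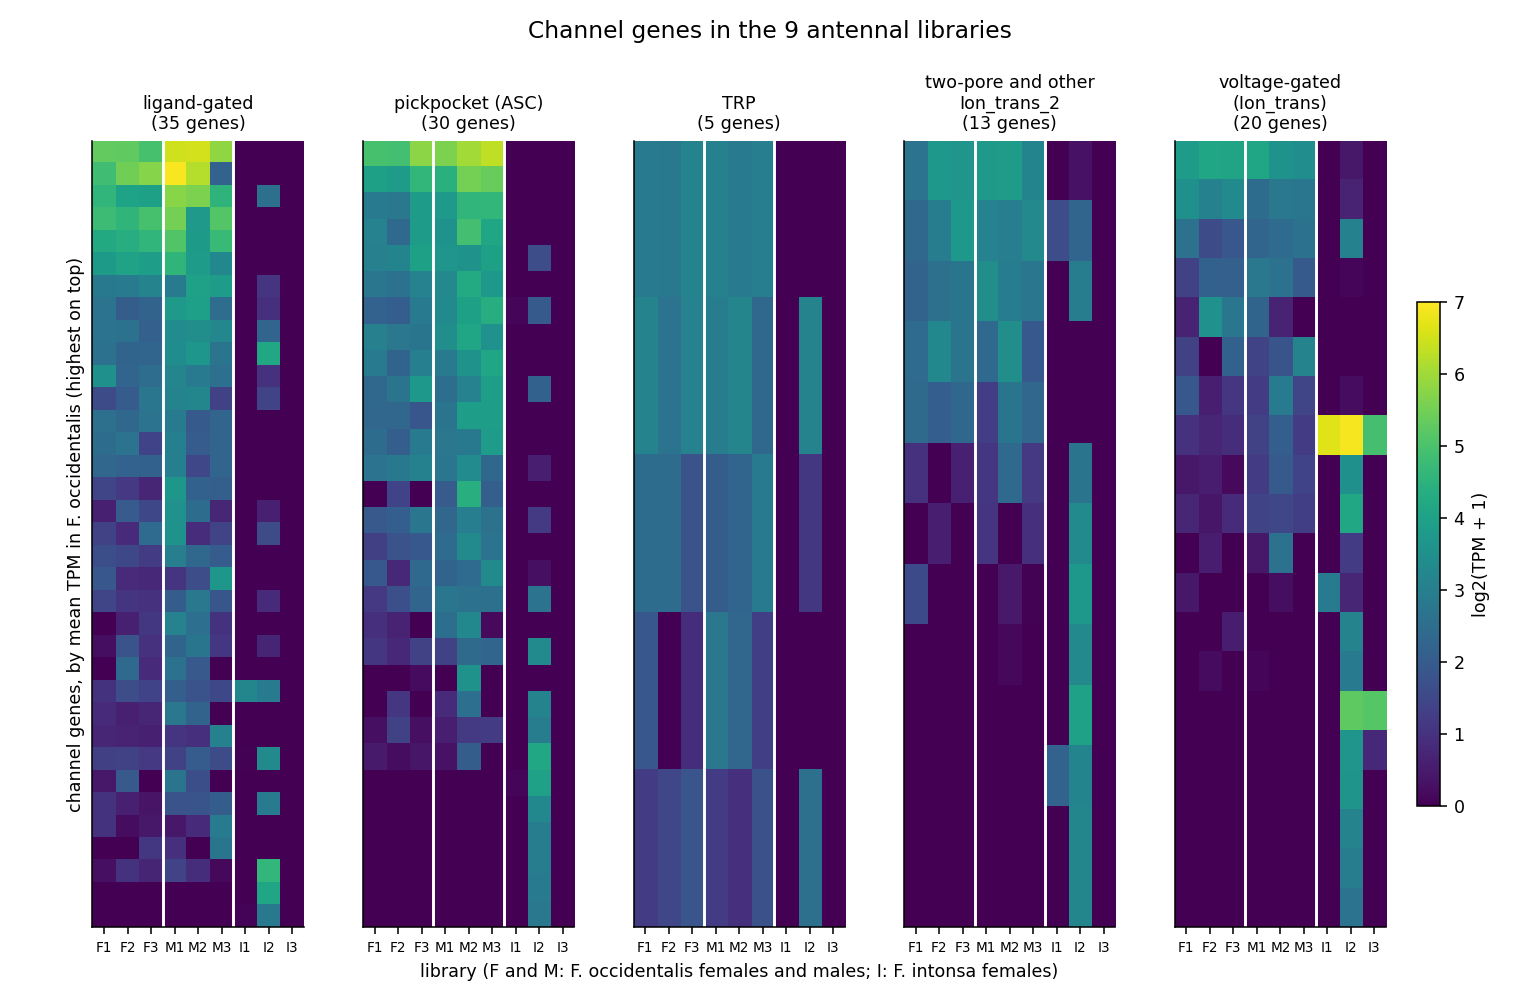
Heatmap of log2(TPM + 1) for the 103 channel genes (rows, ordered in each class by mean TPM in F. occidentalis) in 9 libraries (columns; F1 to F3 and M1 to M3 are F. occidentalis females and males, I1 to I3 F. intonsa females). Most members with signal in F. intonsa show it in library 2, where 66 were above 0, against 9 and 4 in libraries 1 and 3.

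Male F. occidentalis antennae gave higher summed channel levels than female antennae. All members together summed to 417.01, 428.46 and 521.99 TPM in female libraries 1, 2 and 3 and to 818.27, 846.38 and 655.31 TPM in male libraries 1, 2 and 3. Each male library lay above each female library, and the ratio of the means was 1.70. No single member passed the test, however. Of 69 members with at least 1 TPM in at least 3 of the 6 libraries, 0 had an adjusted p under 0.05 (limma-trend on log2(TPM + 1), Benjamini-Hochberg adjusted over all 22015 genes tested), against 1.89% of all tested genes. The smallest adjusted p of a member was 0.101. With an unadjusted p under 0.05 there were 18 members, all higher in males (26.1%, against 10.2% of all tested genes). That count was 8 (7 higher and 1 lower in males) after quantile normalization and 10, all higher, among genes above 0 in both species. With all rows of each component summed, members or not, it was 11 (10 higher and 1 lower). Without female 1 it was 10 (9 higher and 1 lower), and without female 2 or male 2 it was 7 and 4, all higher.

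Signs leaned the same way. The log2 fold change, males minus females, was above 0 for 58 of the 69 members (84.1%, against 62.4% of all tested genes). Its median was 0.67 for the members and 0.19 for all tested genes, so 0.48 above the rest. After quantile normalization, which forces the libraries to one distribution, the medians were 0.44 and −0.02, and 50 members were above 0. The 3 libraries of one sex did not overlap those of the other for 20 members higher in males (29.0%, against 13.3% of all tested genes) and for 1 member lower in males (1.45%, against 6.83%). These are descriptions and carry no test of the set, 8 of the 69 members passed the filter with a female mean under 1 TPM against 0 with a male mean under 1 TPM, and rows of one component are not independent.

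**Figure D2:**
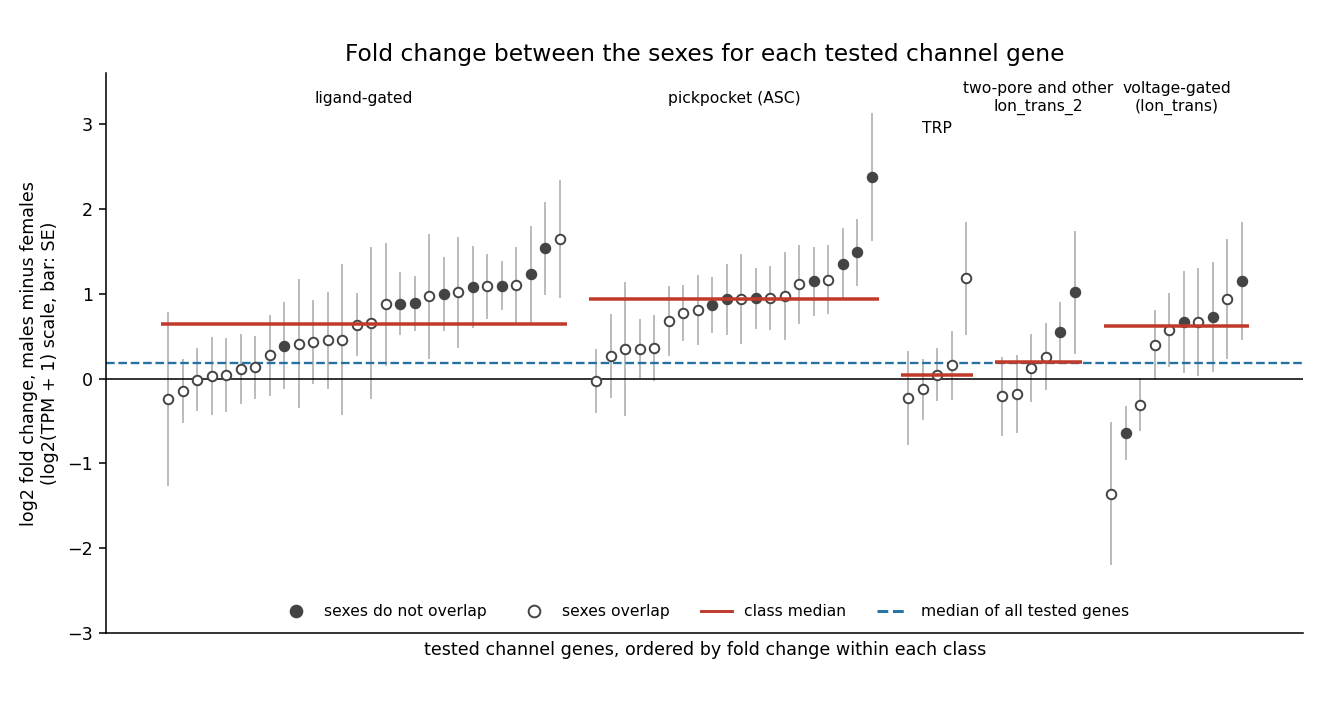
Log2 fold change between the sexes (y axis, males minus females on the log2(TPM + 1) scale, bars are SE, n = 3 per sex) for the 69 tested channel genes, ordered within each class. Filled points are genes whose sexes do not overlap, red lines are class medians (0.64, 0.93, 0.05, 0.19 and 0.62 from left to right) and the dashed line is the median of all tested genes, 0.19.

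The ligand-gated receptors carried much of the difference in summed level. The class summed to 213.35, 219.16 and 223.83 TPM in females and 523.83, 375.95 and 252.6 TPM in males, or 219 ± 5.25 against 384 ± 136 TPM (SD, n = 3 each). The female libraries were close together, and the males were all higher but spread widely, with male 1 highest and male 3 nearest the females. Without its 3 most abundant members the class still had a ratio of male to female means of 1.60, against 1.76 with them. Of 35 members 28 were tested and 25 had a fold change above 0 (89.3%, against 62.4% of all tested genes), with a median of 0.64. After quantile normalization 20 were above 0, with a median of 0.46. Of the tested members 8 had an unadjusted p under 0.05 and were higher in males (28.6%, against 10.2% of all tested genes), 8 were higher without overlap (28.6%, against 13.3%), and 2 passed the filter with a female mean under 1 TPM.

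Channels that match the glutamate-gated chloride channel GluClalpha, an inhibitory receptor and target of ivermectin-like insecticides, were the most abundant of all members. TRINITY_DN42393_c0_g7 was at 38.89, 37.91 and 30.36 TPM in females and 89.61, 90.12 and 56.27 TPM in males. The sexes did not overlap (log2 fold change 1.09 ± 0.29 SE, limma-trend adjusted p = 0.101). A second row of that component, TRINITY_DN42393_c0_g2, was at 27.74, 43.64 and 52.38 TPM in females and 120.51, 73.63 and 3.56 TPM in males. Males 1 and 2 lay above every female and male 3 far below, so its log2 fold change of −0.24 ± 1.02 (SE; adjusted p = 0.949) became 1.22 without male 3. The other GluClalpha rows were lower: TRINITY_DN45665_c0_g3, for example, was at 1.24 to 1.57 TPM in females and 1.59 to 3.10 TPM in males.

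Rows matching vertebrate glycine receptor subunits belong to the same chloride channel family. TRINITY_DN41772_c1_g1, like glycine receptor alpha-3, was at 23.45, 15.65 and 14.91 TPM in females and 52.74, 47.88 and 22.54 TPM in males. Males 1 and 2 were about level and far above the females, whereas male 3 lay inside the female range (log2 fold change 1.09 ± 0.38 SE, adjusted p = 0.204). Summing all rows of its component, members or not, gave 0.57 ± 0.28 (SE, limma-trend adjusted p = 0.332). TRINITY_DN42483_c0_g4, with the same match, was at 5.06, 3.80 and 3.83 TPM in females and 9.59, 11.80 and 5.45 TPM in males, with no overlap (0.88 ± 0.37 SE on the log2 scale, adjusted p = 0.302).

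GABA-gated receptors, the main inhibitory receptors of the insect brain, summed to 14.86, 16.95 and 17.6 TPM in females and 52.47, 40.11 and 18.35 TPM in males. All 8 were tested and 7 had a fold change above 0, with a median of 1.05. TRINITY_DN42094_c2_g7, which matches the Drosophila GABA receptor Rdl, was at 1.05, 0.52 and 0.29 TPM in females and 2.49, 2.51 and 3.21 TPM in males, without overlap but at low levels, passing the filter through 1 female and the 3 males (log2 fold change 1.23 ± 0.57 SE, adjusted p = 0.348).

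Nicotinic acetylcholine receptor subunits, which carry fast excitation in insects and bind neonicotinoids and spinosyns, summed to 67.69, 71.4 and 73.65 TPM in females and 154.67, 69.64 and 85.8 TPM in males. Here the excess lay in male 1, and male 2 lay within the female range. All 11 tested subunits had a fold change above 0 (100%, against 62.4% of all tested genes), with a median of 0.45. After quantile normalization 7 of the 11 were above 0, with a median of 0.23. Male 1 was the highest library for 9 of the 11 (81.8%, against 25.2% of all tested genes). The most abundant subunit rows, TRINITY_DN46745_c1_g2 and TRINITY_DN46745_c1_g1, had log2 fold changes of only 0.04 and 0.13. A row like acr-16 of Caenorhabditis elegans, TRINITY_DN45657_c2_g1, was at 5.32, 5.13 and 3.43 TPM in females and 9.47, 9.99 and 8.41 TPM in males. Its 3 male values were close together and above all females (log2 fold change 0.89 ± 0.33 SE, adjusted p = 0.226). The row matching subunit alpha-like 2, TRINITY_DN46348_c1_g1, was at 1.77, 1.23 and 0.69 TPM in females and 12.09, 3.48 and 3.31 TPM in males. The sexes did not overlap, and male 1 stood far above the other males (log2 fold change 1.53 ± 0.55 SE, adjusted p = 0.213). Only male 1 reached 5.01 TPM, the smallest row maximum of the table. The row is thus listed only through male 1, so its lack of overlap is not evidence of a difference.

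Across the ligand-gated class, male 1 was the highest of the 6 libraries for 16 of 28 tested members (57.1%, against 25.2% of all tested genes), male 2 for 9 and male 3 for 2. Some of these rows, such as TRINITY_DN44899_c0_g2 and TRINITY_DN32881_c0_g2, reached 5.01 TPM in male 1 alone. They are listed only through male 1, which favours that library in the count. The values of the classes by library are shown in the plot of class sums.

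**Figure D3:**
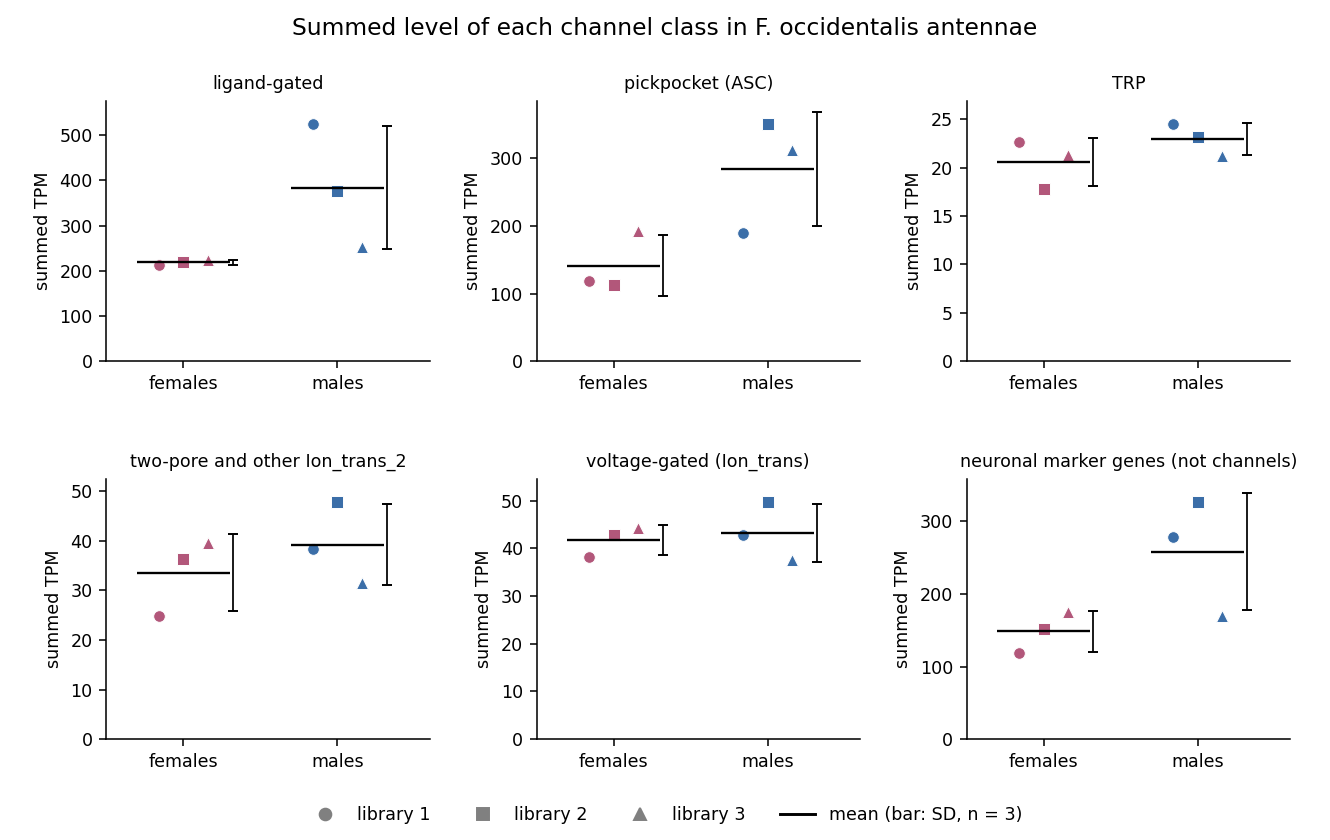
Summed TPM (y axis, from 0) of each channel class, and of the neuronal marker genes, in F. occidentalis females and males; points are libraries 1 to 3, lines are means and bars SD (n = 3). Ligand-gated channels do not overlap between the sexes, pickpocket channels overlap through male 1 (189 TPM, below female 3 at 193.14 TPM), and the ratio of male to female means of the other channel classes is 1.04 to 1.17 (for voltage-gated channels 1.04, and 1.17 without the MRPS9-annotated row).

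Pickpocket-family channels had the largest median difference of the 5 classes. They summed to 118.03, 112.48 and 193.14 TPM in females and 189, 349.93 and 312.6 TPM in males, or 141 ± 45.1 against 284 ± 84.2 TPM (SD, n = 3 each). Males 2 and 3 were far above the females, and male 1 was level with female 3. Of 30 members 20 were tested, 19 had a fold change above 0 and the median was 0.93. An unadjusted p under 0.05 with higher males was found for 10 (50.0%, against 10.2% of all tested genes), 7 were higher without overlap (35.0%, against 13.3%), and 2 passed the filter with a female mean under 1 TPM. All 17 tested rows with Nach wording had a fold change above 0, with a median of 0.94, while 4 tested rows with pickpocket wording (2 of which carry both words) had a median of 0.31.

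The most abundant pickpocket-family row was Nach TRINITY_DN41445_c0_g5, at 30.28, 29.17 and 53.58 TPM in females and 48.41, 64.09 and 79.04 TPM in males. Male 1 was below female 3, so the sexes overlapped (log2 fold change 0.77 ± 0.33 SE, adjusted p = 0.306). A shorter row of that component, TRINITY_DN41445_c0_g7, was at 14.91, 13.52 and 23.82 TPM in females and 20.66, 45.48 and 40.31 TPM in males, with the same order of male 1 and female 3 (0.95 ± 0.38 SE, adjusted p = 0.264). All rows of the component summed, members or not, gave 0.98 ± 0.31 (SE, limma-trend adjusted p = 0.135).

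Nach TRINITY_DN41523_c0_g5 was the pickpocket row nearest to the threshold. It was at 3.62, 3.29 and 6.45 TPM in females and 8.98, 14.78 and 19.58 TPM in males, with no overlap (1.49 ± 0.39 SE on the log2 scale, adjusted p = 0.101). When only genes above 0 in both species were tested, it was the 1 member called (adjusted p = 0.0356). A second row of its component, TRINITY_DN41523_c0_g3, which matches ppk19 of Drosophila, was at 4.02, 5.46 and 12.37 TPM in females and 4.73, 7.67 and 14.20 TPM in males, so the sexes overlapped widely (log2 fold change 0.27 ± 0.49 SE). With all rows of the component summed, members or not, the log2 fold change was only 0.43 ± 0.32 (SE, limma-trend adjusted p = 0.546). The difference of TRINITY_DN41523_c0_g5 need therefore not be that of a whole gene.

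The largest fold change of any tested member belonged to a Nach-like fragment of 237 bases, TRINITY_DN45431_c0_g1. It was listed at 0, 1.63 and 0 TPM in females and at 2.99, 20.09 and 3.33 TPM in males (log2 fold change 2.37 ± 0.75 SE, adjusted p = 0.164), so male 2 set most of its mean, and it passed the filter with a female mean under 1 TPM. Only male 2 reached 5.01 TPM, so this fragment is in the table through that library alone. Nach TRINITY_DN42113_c0_g9 was at 1.23, 2.29 and 3.84 TPM in females and 5.67, 5.18 and 5 TPM in males, without overlap (0.93 ± 0.42 SE, adjusted p = 0.326). The member rows of its component summed to 1.46 to 4.07 TPM in females and 6.17 to 6.48 TPM in males. With all rows of that component summed, members or not, the log2 fold change was −0.56 ± 0.24 (SE, limma-trend adjusted p = 0.265). Unlike the ligand-gated class, male 1 was the highest library for only 1 of the 20 tested pickpocket members, with male 2 highest for 10 and male 3 for 7.

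**Figure D4:**
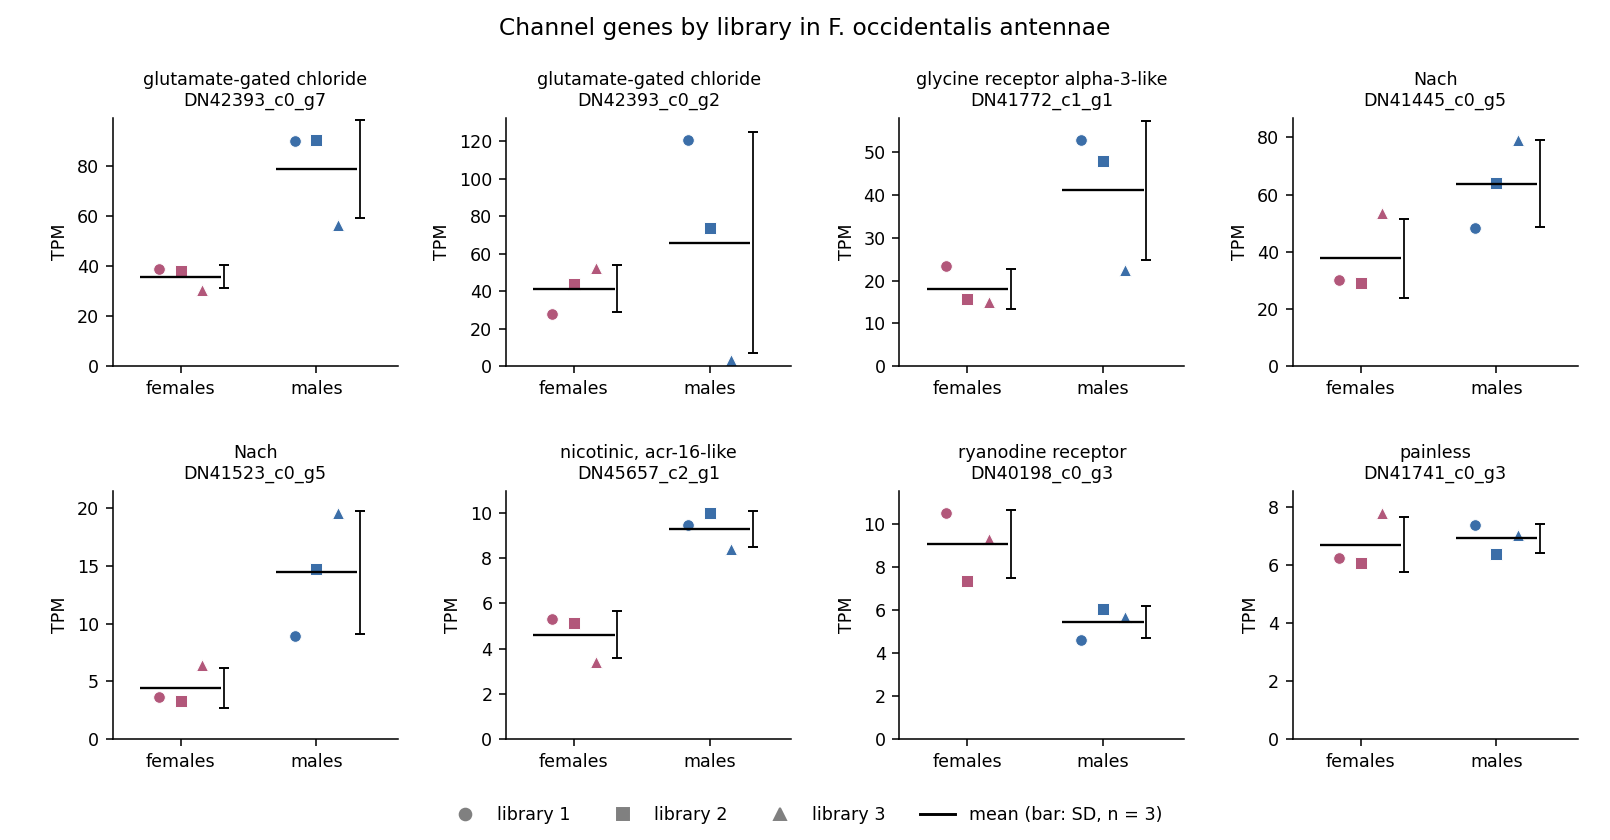
TPM (y axes, from 0) of 8 channel genes in the 3 female and 3 male F. occidentalis libraries; points are libraries 1 to 3, lines are means and bars SD (n = 3). The sexes do not overlap for TRINITY_DN42393_c0_g7, TRINITY_DN41523_c0_g5, TRINITY_DN45657_c2_g1 and, with lower males, TRINITY_DN40198_c0_g3, and 1 male library lies near 0 for TRINITY_DN42393_c0_g2.

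The summed TRP channels overlapped between the sexes. Their sum was 22.59, 17.8 and 21.29 TPM in females and 24.44, 23.16 and 21.21 TPM in males, and the median log2 fold change of all 5 members was 0.05 (−0.19 after quantile normalization). Painless, which in Drosophila serves noxious heat sensing, had the highest values: TRINITY_DN41741_c0_g3 was at 6.25, 6.07 and 7.79 TPM in females and 7.37, 6.39 and 7.03 TPM in males. The male range lay inside the female range (log2 fold change 0.05 ± 0.31 SE, adjusted p = 0.970). Another painless row of that component, TRINITY_DN41741_c0_g1, was at 7.70, 5.33 and 7.53 TPM in females and 6.78, 8.05 and 4.13 TPM in males (−0.13 ± 0.36 SE), and the last, TRINITY_DN41741_c0_g2, was at 1.36 to 2.60 and 0.91 to 2.36 TPM. The row for trp-gamma, a relative of the Drosophila phototransduction channel trp, was at 4.53, 4.59 and 2.48 TPM in females and 3.19, 3.89 and 6.23 TPM in males (TRINITY_DN43923_c0_g2, 0.15 ± 0.40 SE). The fifth member, a fragment of 305 bases matching trpm, a divalent cation channel, was at 2.75, 0 and 0.89 TPM in females and 5.79, 3.92 and 1.46 TPM in males (TRINITY_DN40215_c1_g8). It had the highest fold change of the class, but the sexes overlapped (log2 fold change 1.18 ± 0.67 SE, adjusted p = 0.457). Only male 1 reached 5.01 TPM, so this row is listed through that library alone.

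Channels with an Ion_trans_2 domain were mostly tandem-pore potassium leak channels, with a calcium-activated (SK) and a sodium-activated (KCNT1) potassium channel among them. They summed to 24.81, 36.28 and 39.56 TPM in females and 38.3, 47.71 and 31.41 TPM in males. The sexes overlapped, the median log2 fold change of the 6 tested members was 0.19 (−0.02 after quantile normalization), and 4 of them were above 0. The most abundant, TRINITY_DN43199_c1_g3, like the C. elegans leak channel twk-18, was at 5.30, 12.27 and 11.57 TPM in females and 12.74, 13.66 and 7.90 TPM in males. TRINITY_DN43930_c0_g1, like human KCNK1, was at 3.66, 5.04 and 5.62 TPM in females and 10.05, 6.82 and 5.78 TPM in males, just without overlap (0.55 ± 0.35 SE, adjusted p = 0.517).

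Voltage-gated and related channels with an Ion_trans domain summed to 41.7 ± 3.10 TPM in females against 43.3 ± 6.09 TPM in males (mean ± SD of 3 libraries), a ratio of 1.04. This rested on the most abundant rows: the ratio was 1.17 without the MRPS9-annotated row, and 1.47 without that row and the ryanodine receptor row TRINITY_DN40198_c0_g3. The remaining rows summed to 14.22, 18.75 and 18.97 TPM in females and 21.71, 32.45 and 22.07 TPM in males, without overlap. Of 20 members 10 were tested and 7 had a fold change above 0, with a median of 0.62. However, 3 of the 10 passed the filter with a female mean under 1 TPM, so that their direction was favoured by the filter. Of the 2 with a mean of at least 5 TPM 0 were above 0, but these were the MRPS9-annotated row and the ryanodine receptor row. Neither is annotated as a voltage-gated channel, and no row so annotated was that abundant. The 1 member lower in males without overlap was the ryanodine receptor, which releases calcium from internal stores in muscle and neurons and is the target of diamide insecticides. TRINITY_DN40198_c0_g3 was at 10.50, 7.37 and 9.29 TPM in females and 4.61, 6.03 and 5.67 TPM in males (log2 fold change −0.64 ± 0.32 SE, adjusted p = 0.391). The muscle marker list also had lower sums in every male (12058, 8014 and 7895 TPM in males 1, 2 and 3) than in any female (at least 12413 TPM). Troponin and tropomyosin rows made up most of these sums, whereas myosin heavy chain rows overlapped, at 580 to 913 TPM in females and 591 to 696 TPM in males, and titin and paramyosin rows overlapped as well. Of 41 tested muscle genes 17 had a fold change above 0 and 0 were called (7 with an unadjusted p under 0.05). Their part in the ryanodine receptor value was not tested.

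The pore subunits of voltage-gated calcium channels were low. The Drosophila presynaptic channel cacophony was matched by TRINITY_DN46311_c0_g3, at 0.36, 0.47 and 0.14 TPM in females and 1.35, 2.93 and 1.67 TPM in males, and by TRINITY_DN45939_c0_g1, at 0.68, 0.33 and 0.83 TPM in females and 1.68, 1.81 and 1.46 TPM in males. Both were under 1 TPM in every female and passed the filter only through the 3 males, so their lack of overlap is not evidence of a difference. They had log2 fold changes of 1.15 ± 0.69 and 0.73 ± 0.65 (SE) and adjusted p of 0.491 and 0.664. A fragment of 236 bases matching Ca-alpha1D, TRINITY_DN15275_c0_g1, had the most negative fold change of any member, −1.35 ± 0.84 (SE; adjusted p = 0.505), from 0.62, 10.56 and 5.76 TPM in females and 3.79, 0.58 and 0 TPM in males, which overlapped. The endolysosomal cation channel Tpcn1 (TRINITY_DN45409_c0_g10) was at 1.57 to 3.53 TPM in females and 2.96 to 6 TPM in males.

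Among potassium channels, slowpoke, which repolarizes cells when calcium rises, was at 5.25, 2.05 and 2.71 TPM in females and 3.83, 4.45 and 5.13 TPM in males (TRINITY_DN46421_c0_g9, 0.40 ± 0.41 SE). Shaker (TRINITY_DN34384_c0_g2) was above 1 TPM in 1 F. occidentalis library, male 2, at 5.13 TPM, and was not tested. The leak channel NALCN was low in both sexes of F. occidentalis: TRINITY_DN39842_c0_g8 was at 1, 0.69 and 0.89 TPM in females and 1.55, 3.23 and 1.37 TPM in males (0.67 ± 0.60 SE), with a female mean under 1 TPM. A fragment of that component, TRINITY_DN39842_c0_g6, was at 0 to 3.55 and 1.70 to 7.70 TPM. The MRPS9-annotated row was at 13.51, 16.62 and 15.91 TPM in females and 16.38, 11.15 and 9.75 TPM in males (TRINITY_DN39598_c0_g3, −0.31 ± 0.31 SE).

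Genes that work with these channels but are not channels by the rule were followed as auxiliary and partner lists. Of 78 such genes 50 were tested, 39 had a fold change above 0 (78.0%, against 62.4% of all tested genes), 1 rose and 0 fell, close to the 1.89% called among all tested genes, with a median log2 fold change of 0.29 against 0.19. The one that rose was a sodium pump alpha subunit, TRINITY_DN44202_c0_g1, which restores the sodium gradient after channel activity. It was at 16.83, 19.63 and 17.97 TPM in females and 60.62, 58.60 and 39.91 TPM in males, or 1.48 ± 0.28 (SE) on the log2 scale (limma-trend adjusted p = 0.0395). The call was lost after quantile normalization (adjusted p = 0.0541), without a filter (0.0569), without trend (0.0834), with all 9 libraries in 1 fit (0.743), and without any 1 library other than male 3 (0.0864 to 0.165). The 28 sodium pump genes summed to 352.93, 502.14 and 555.28 TPM in females and 1124.8, 967.07 and 590.58 TPM in males. Calcium channel auxiliary subunits had 3 of 3 tested genes above 0, TipE-like sodium channel auxiliaries 3 of 3, potassium channel auxiliaries 4 of 5, and acetylcholine receptor chaperones 2 of 2, with none called in these lists. Stomatin-like, anoctamin and other stretch partners had 2 of 5 above 0, innexins 5 of 7, chloride channels 3 of 4 and the inositol trisphosphate and ryanodine receptor rows outside the rule 1 of 2, also with none called.

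General markers of neurons also had their highest sums in males 1 and 2. The list of 21 neuronal genes summed to 118.91, 151.91 and 174.57 TPM in females and 278.39, 325.84 and 169.91 TPM in males. Males 1 and 2 were above all females and male 3 was below female 3. Synaptotagmin 1, futsch and choline acetyltransferase rows made up most of these sums, and complexin rows were higher in each male than in any female. Synaptobrevin rows overlapped, at 16.31 to 20.29 TPM in females and 19.02 to 21.57 TPM in males. SNAP-25 was at 2.65 to 4.43 TPM in females and 2.07, 5.88 and 2.11 TPM in males, and neurexin was highest in male 3 (15.07 TPM). Of the 14 tested genes of the list 13 had a fold change above 0 (92.9%, against 62.4% of all tested genes), with a median of 0.72. Of these genes 0 were called, and 6 had an unadjusted p under 0.05, all higher in males (42.9%, against 10.2%). The names elav, syntaxin 1A, bruchpilot and synapsin of this list had no gene. Glial marker genes summed to 54.23, 86.43 and 81.85 TPM in females and 157.82, 154.22 and 72.19 TPM in males. Of 8 tested glial genes 7 were above 0 (87.5%), and repo had no gene. Of 31 tested cilium genes (tubulin beta, intraflagellar transport and axonemal dynein) 18 were above 0 (58.1%). Their median was 0.10, and 1 was called, higher in males. Of 27 tested eye genes 8 were above 0 (29.6%), with a median of −0.47 and 0 called. The share above 0 was 62.4% over all tested genes. Orco was at 9.16, 16.62 and 16.08 TPM in females and 9.72, 23.3 and 15.97 TPM in males. The part of these markers in the channel values was not tested, and in such whole-antenna samples fewer cells of a type and less RNA per cell cannot be told apart.

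Between females of the species, the same rows were mostly not measured alike, and the cause was not tested. Values above 0 in both species were found for 48 of the 103 members, in F. occidentalis only for 37 and in F. intonsa only for 18. By component, 41 of 67 were above 0 in both. In F. intonsa the count depended on the library: 9, 66 and 4 members were above 0 in libraries 1, 2 and 3. For 55 of the 66 members above 0 in F. intonsa, library 2 was the only one (83.3%, against 41.0% of all genes above 0 in that species). Ribosomal protein rows, which every cell uses, were at 0 in 205, 172 and 297 of 460 cases in F. intonsa libraries 1, 2 and 3. In the F. occidentalis libraries they were at 0 in 152 to 194 cases. A 0 in either species is therefore a listing and not a measured absence.

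In the test of species, 50 members passed the filter and 38 were called, 37 lower and 1 higher in F. intonsa (limma-trend), against 85.4% of all 21231 tested genes called, 68.3% lower and 17.1% higher. The balance over all genes turned without any 1 F. occidentalis library, where the filter needs signal in F. intonsa: 2868 genes were higher and 744 lower without female 1, 2809 and 663 without female 2, and 2718 and 628 without female 3, while the called members were 1 higher and 3, 3 and 4 lower. After quantile normalization 13 members were called, 11 lower and 2 higher, and 6509 genes in all were lower and 4538 higher. Of the 50 tested members 22 had a 0 in each of the 3 F. intonsa libraries (44.0%, against 55.1% of all tested genes). Each of these was called, and no fold is given for them. They include both GluClalpha rows of highest level and both most abundant Nach rows, at 0 in each F. intonsa library. The share of members called was below that of all genes, and it says little of the channels themselves.

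The 1 member higher in F. intonsa was NALCN. TRINITY_DN39842_c0_g8, a row of 2539 bases, was at 1, 0.69 and 0.89 TPM in F. occidentalis females and at 99.17, 117.68 and 29.39 TPM in F. intonsa libraries 1, 2 and 3. Every F. intonsa library lay far above every F. occidentalis library, including the males at 1.37 to 3.23 TPM. On the log2 scale the difference was 5.26 ± 0.57 (SE, limma-trend adjusted p = 0.000364), and 4.89 to 5.88 with 1 library left out, highest without F. intonsa library 3. However, the row was listed and passed the filter only through its F. intonsa values. Its direction and p-value were thus favoured by that selection. NALCN was 1 of 2 members above 0 in all 3 F. intonsa libraries. The other NALCN row of its component, TRINITY_DN39842_c0_g6, was at 0 to 3.55 TPM in F. occidentalis females and at 0 in every F. intonsa library. The rows of the component without a Swiss-Prot name were each above 0 in 1 species only, so the difference of a row need not be that of the gene. Summed over both NALCN rows, F. occidentalis females were at 2.58, 0.69 and 4.44 TPM and the F. intonsa libraries at 99.17, 117.68 and 29.39 TPM. All members together summed to 119.84, 559.12 and 65.05 TPM in these libraries, so NALCN held most of the channel signal of library 1, and NALCN and a ryanodine receptor row (34.91 TPM) together held most of that of library 3.

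The ryanodine receptor was split between rows. TRINITY_DN40198_c0_g3, given above for the sexes, was at 0, 0.60 and 0 TPM in F. intonsa, while TRINITY_DN40198_c0_g1 of the same component was at 0, 37.33 and 34.91 TPM in F. intonsa and at 0 in all 6 F. occidentalis libraries. Summed over the component, the receptor was at 10.50, 7.37 and 9.29 TPM in F. occidentalis females and at 0, 49.49 and 35.65 TPM in F. intonsa. A row-by-row comparison therefore gave opposite directions for fragments with the same annotation.

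Other members with signal in both species had it in F. intonsa library 2 alone for the most part. Painless TRINITY_DN41741_c0_g1 was at 7.71 TPM there, the glycine receptor alpha-3-like TRINITY_DN42483_c0_g4 at 17.16 TPM, slowpoke (TRINITY_DN46421_c0_g9) at 7.46 TPM and cacophony (TRINITY_DN45939_c0_g1) at 17.29 TPM, each listed at 0 in libraries 1 and 3. The nicotinic subunit TRINITY_DN43790_c1_g1, described as alpha 6 of F. occidentalis itself, was at 8.26, 6.38 and 0 TPM in F. intonsa and 1.05, 2.15 and 1.66 TPM in F. occidentalis females (log2 fold change 0.66 ± 0.90 SE, adjusted p = 0.518). A twk-7-like leak channel, TRINITY_DN43199_c1_g2, was at 2.14, 3.87 and 0 TPM against 4.08, 6.62 and 12.21 TPM. Both cyclic-nucleotide-gated rows were seen only in F. intonsa library 2, at 11.23 and 5.40 TPM (TRINITY_DN25077_c0_g2 and TRINITY_DN40950_c0_g3).

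**Figure D5:**
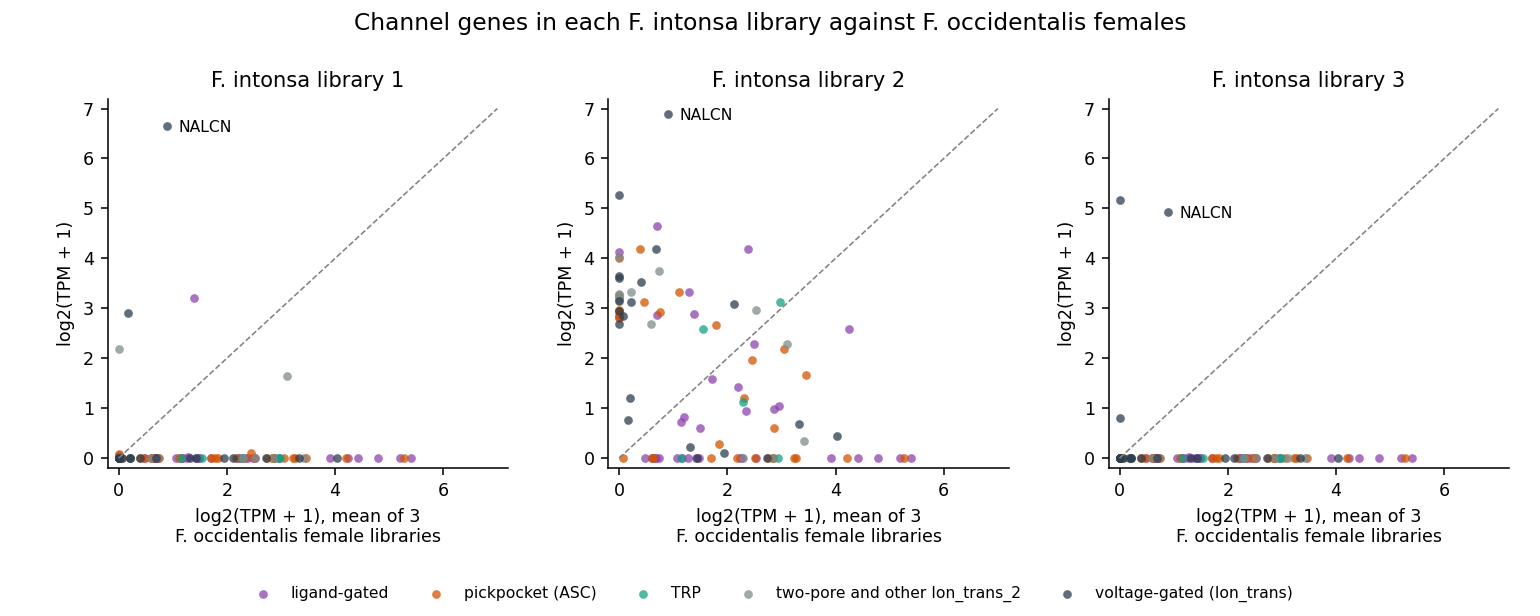
Log2(TPM + 1) of the 103 channel genes in each F. intonsa library (y axes, 1 panel a library) against the mean of the 3 F. occidentalis female libraries (x axes); points are genes colored by class and the dashed line marks equal values. In libraries 1 and 3 nearly all genes lie at 0 except NALCN (99.17 and 29.39 TPM) and a few others.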

How the data were processed

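Template-switching (SMARTer) cDNA from little RNA was amplified by PCR and cut enzymatically before library construction, per the labels' protocols. The submitters' processing notes name Salmon, cutadapt and FastQC. The assembler, the annotation source and all versions were not given in the sources used here. TPM is the unit of the 48889 assembled genes in the table the authors deposited. Its header names no unit: TPM was taken from Salmon and the column totals. All 9 value columns matched a sample by name.

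Members were found by annotation text and classed by it; names and roles rest on that text. The sexes of F. occidentalis, and the females of both species, were compared with limma-trend (R 4.3.3, limma 3.58.1) on log2(TPM + 1), keeping genes with at least 1 TPM in at least 3 libraries of the comparison, with Benjamini-Hochberg adjustment over all genes tested and a threshold of 0.05. Changes of low genes are understated on that scale. Fits were tested on simulated data. Tables and plots used Python 3.11.15, pandas 2.3.3, numpy 2.4.6 and matplotlib 3.10.9.

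Named genes were called members, the most abundant of each class, the TRP and Piezo names listed above, the 3 largest rises and falls averaging at least 5 TPM in either sex, and members averaging at least 1 TPM in both species. Other genes named were chosen after their values were seen: TRINITY_DN44202_c0_g1 as the called partner gene, the F. intonsa ryanodine receptor row, the cyclic-nucleotide rows, the trpm, para and transmembrane channel-like rows, and the genes of the closing observations. Members, lists and tests were chosen with earlier results of these data known. No sequence was used here.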

Additional observations from a re-analysis of the deposited data

How the results depend on the processing

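Depth is unknown, rows can be fragments, and 3 libraries a group limit precision. Called channel members between the sexes numbered 0, and 1 when only genes above 0 in both species were tested; leaving out 1 library gave 0 to 0. Members with an unadjusted p under 0.05 numbered 18, and 19 without trend, 16 without a filter, 8 after quantile normalization, 10 among genes above 0 in both species, 11 by component and 4 (without male 2) to 20 without 1 library. All of these were higher in males except 1 after quantile normalization, 1 by component and 1 without female 1. The called genes of all kinds numbered 415, and 271 with a pseudocount of 0.1, 116 without a filter, 207 after quantile normalization (65 higher and 142 lower in males, against 213 and 202), 198 without trend, 773 with only genes seen in both species, and 18 to 285 without 1 library, the lowest without female 1. Between species, 38 members were called, and 13 after quantile normalization, 14 among genes above 0 in both species, 12 with genes summed by component (chosen after seeing the data) and 4 to 47 without 1 library. The lowest counts came without an F. occidentalis library (4, 4 and 5), where the filter on 3 libraries left 19 to 21 members tested. All genes called between species numbered 18127, and 11047, 3128 and 6081 in those 3 alternatives and 3346 to 16126 without 1 library. The log2 fold change of NALCN between species was 4.89 to 6.20 over the alternatives, past the threshold in each. That direction was favoured by the listing of the row, which rested on F. intonsa.

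Replicate numbers did not pair the samples: the correlations of same-numbered libraries' deviations were −0.03, 0.05 and −0.04 for sex and 0.03, 0.000163 and −0.06 for species. With the replicate number as a block, 0 members (13 with an unadjusted p under 0.05) and 363 genes were called between the sexes and 38 and 18104 between species, and the sodium pump subunit had an adjusted p of 0.0710. Among 411 alternative values of 33 named genes 398 kept their direction and side of the threshold, and 12 values in 7 genes changed sign, none of them of a called gene. Without 1 library the log2 fold changes of these genes ran from −0.10 to 0.68 for TRINITY_DN41523_c0_g3, −0.30 to 0.11 for TRINITY_DN41741_c0_g1, −0.0115 to 0.15 for TRINITY_DN41741_c0_g3, −1.15 to 1.22 for TRINITY_DN42393_c0_g2, −0.20 to 0.49 for TRINITY_DN43199_c1_g2, −0.0884 to 0.48 for TRINITY_DN43199_c1_g3 and −0.0715 to 0.32 for TRINITY_DN43923_c0_g2. After quantile normalization TRINITY_DN41741_c0_g3, TRINITY_DN43199_c1_g2 and TRINITY_DN43923_c0_g2 gave −0.19, −0.10 and −0.18. The cause of these shifts was not tested.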

Other observations

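Some channel-named rows outside the rule, chosen after their values were seen, add to the picture of mechanical and potassium channels. A Piezo fragment of 252 bases without a Piezo domain, TRINITY_DN46822_c2_g13, was at 0.54, 1.46 and 0 TPM in F. occidentalis females and 0, 5.77 and 1.82 TPM in males. A mucolipin-3-like row, which matches an endolysosomal TRP-related channel, was at 8.78, 12.55 and 11.3 TPM in females and 11.74, 15.87 and 5.8 TPM in males (TRINITY_DN41163_c1_g4). An inward rectifier potassium channel row, TRINITY_DN46263_c0_g1, was at 36.37, 23.15 and 32.97 TPM in females and 36.85, 37.41 and 27.27 TPM in males, and at 0.4, 31.26 and 3.07 TPM in F. intonsa.

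Rows for unc-79, a subunit of the NALCN complex, also had their highest values in F. intonsa. TRINITY_DN37633_c1_g1 was at 155.12, 21.25 and 0 TPM there and listed at 0 in all F. occidentalis libraries. TRINITY_DN37633_c1_g2 was at 15.48, 1.60 and 4.01 TPM in F. intonsa and at most 0.21 TPM in F. occidentalis. The last unc-79 row, TRINITY_DN41643_c0_g3, was at 0, 9.19 and 0 TPM in F. intonsa and at most 0.41 TPM in F. occidentalis. Each unc-79 row reached 5.01 TPM, the smallest row maximum of the table, only in F. intonsa. That their highest values lie there is therefore set by their listing. These rows were looked up because NALCN was the one member higher in F. intonsa, and they are no independent check of it.

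In male library 3, 4 glycine receptor-like members, picked for this pattern after their values were seen, stood above the other F. occidentalis libraries. TRINITY_DN4211_c1_g1 was at 12.03 TPM there and at 0.72 to 2.70 TPM in the other 5 libraries, and TRINITY_DN33811_c0_g4 at 7.50 TPM against 0.52 to 1.07 TPM. TRINITY_DN4211_c0_g1 (6.27 TPM) and TRINITY_DN6710_c0_g1 (5.65 TPM) had the same pattern. Each of the 4 rows reached 5.01 TPM, the smallest row maximum among all rows listed, in male 3 alone. They are thus listed only through their male 3 value, so the pattern is not evidence of a difference of that library.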
